A study of Mus musculus with 6 samples.

Results

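A set of 10 genes that encode cytokine receptor chains of B cells was followed in the H3K4me1 and H3K4me3 peak lists of germinal center (GC) B cells: Il21r, Il4ra, Il10ra, Ifngr1, Ifngr2, Ifnar1, Ifnar2, Il6ra, Il2ra and Il7r. They were taken as a fixed list of names, 10 of the 21864 protein-coding genes annotated on the mouse build GRCm38 (mm10), and all 10 were found in the annotation. A peak was called a promoter peak when it lay within 5 kb of a transcription start site (TSS) of a protein-coding transcript, a gene body peak when it overlapped the gene further than 5 kb from each such TSS, and an outlying peak when it lay 5 to 50 kb away and outside the gene.

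The data were 6 Mint-ChIP libraries, 3 replicates for each mark. Mint-ChIP is a form of chromatin immunoprecipitation for small samples, in which chromatin is cut by MNase and barcoded before the samples are pooled for the antibody step. All libraries shared 1 group: spleen cells of wild-type mice (genotype label WT, no Cre or other allele and no age given in the labels), collected on day 8 after immunization with sheep red blood cells (SRBC), with 50000 sorted cells per library. Per the labels the cells were GC centrocytes, while the methods of the study describe GC B cells in general, and which of these was sorted is not known. Titles, antibody labels and the series design give the marks used here, although the labels' protocol speaks of an antibody to H3K27ac. Nothing in the labels says that replicates came from separate mice, so the p-values below measure only the spread between these libraries, which may be technical. There is no mutant or untreated group, and the comparison the design allows is between the marks.

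Cytokine receptors on B cells pass signals from T cells and other neighbours through JAK kinases to STAT transcription factors. In the GC, interleukin 21 and interleukin 4 from T follicular helper cells are the best known of these signals, and interferons, interleukin 6 and interleukin 10 act on the same cells. H3K4me3 is the histone mark of active promoters, and H3K4me1 marks enhancers and the flanks of promoters.

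In replicates 1 to 3 the H3K4me1 lists held 24136, 13923 and 11922 peaks, of which 74, 48 and 36 lay in the windows of the receptor genes. The H3K4me3 lists held 46707, 41936 and 42862 peaks, with 74, 69 and 72 in those windows. H3K4me1 replicate 1 was the richest list of its mark by a wide margin. Read depth was not used here, and summit heights cannot stand for it, since only peaks past the threshold are listed. The median H3K4me1 summit in the receptor windows held 7, 6 and 6 fragments, with a range of 4 to 16 over the libraries. A gene without a peak therefore had none past the authors' threshold at this depth, which does not show that the mark is absent. The cell type label was checked with marker genes. All 8 GC B cell markers used (Ms4a1, Cd79a, Cd79b, Pax5, Bcl6, S1pr2, Mef2b and Fas) had promoter H3K4me3 in 3 of 3 libraries, with a summed promoter length of 61637 to 65891 bp. Of 8 T cell markers found, 2 had it in 3 of 3 libraries (Lck and Cd3d), Cd5 in 2 and Cd3g in 1, and Cd3e, Cd4, Cd8a and Cd28 were at 0. Their sum was 10186 to 12200 bp, of which Lck alone held 8579 to 10671 bp. Of 6 myeloid markers 2 had it in 3 of 3 libraries (Cd14 and Itgam), Csf1r in 2 and Adgre1 in 1, with a sum of 1348 to 3590 bp, and Lyz2 and Mpo were at 0. All 5 plasma cell markers (Prdm1, Sdc1, Irf4, Xbp1 and Jchain) had it in 3 of 3 libraries, with a sum of 18542 to 19028 bp. The part of such cells in the values below was not tested.

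Nearly all of the receptor promoters carried H3K4me3. A promoter H3K4me3 peak was found in 3 of 3 libraries at 9 of 10 receptor genes, against 56.2% of all protein-coding genes, and Il7r had none in any library. Promoter H3K4me1 was found in 3 of 3 libraries at 5 of 10 (Il21r, Il4ra, Ifngr1, Ifngr2 and Ifnar1), against 6.17% of all genes. Il10ra and Il2ra had it in 2 libraries, Ifnar2 and Il6ra in 1, and Il7r in none. The same 5 genes carried both marks in every library, against 6.16% of all genes. Away from the promoters, gene body H3K4me3 was found in every library at 5 of 10 receptor genes (19.3% of all genes) and gene body H3K4me1 at 2, Il6ra and Il2ra (6.64%). Outlying peaks were found in every library at 9 of 10 for H3K4me3 (60.3%) and at 9 of 10 for H3K4me1 (20.4%), with Il7r the exception for both. No promoter peak of either mark in any library, the state of Il7r, was the state of 33.9% of all genes.

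The length of the promoter window under H3K4me3 peaks varied widely among the receptor genes, and most neighbours in that order could not be separated. Il21r was first at 9958 ± 149 bp (SD, n = 3 libraries), 99.1% of its window, so its value is limited by the window itself. It stood above all other receptor genes in every library. Il10ra (6396.3 ± 1420.4 bp), Il4ra (5708.7 ± 305.4 bp), Il6ra (5496.7 ± 535.6 bp), Ifngr1 (4774.7 ± 851.9 bp) and Ifngr2 (4605.3 ± 311.5 bp) followed, each overlapping the next in its replicate values. Below Ifngr2 there was a gap without overlap to Ifnar1 (2698 ± 447 bp), and a narrow one from Ifnar1 to Il2ra (2035.7 ± 35 bp), which overlapped Ifnar2 (1957.3 ± 338.7 bp). Il7r was last at 0 bp. As shares of the promoter window these were 63.9%, 57.1%, 54.8%, 47.7%, 46%, 26.9%, 20.3%, 19.3% and 0%. The receptor genes had a median of 4690 bp, compared with 1032.3 bp over all genes and 2084.7 bp over genes with the mark in 3 of 3 libraries. For H3K4me1 their median was 444.5 bp, compared with 0 bp over all genes and 496.5 bp over genes with that mark in 3 of 3 libraries.

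**Figure D1:**
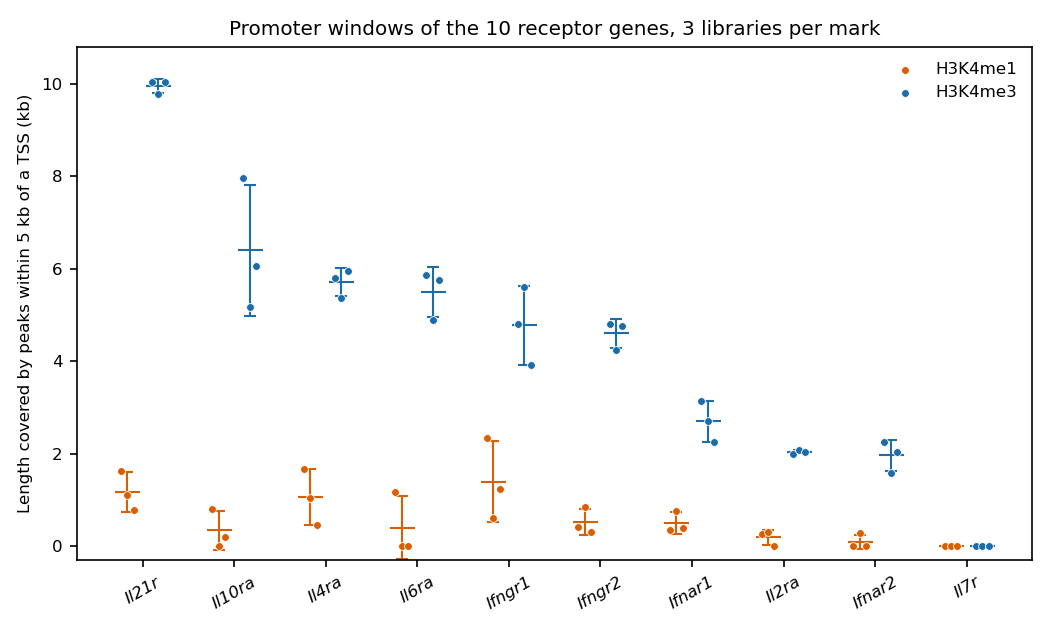
Length covered by peaks within 5 kb of a coding TSS (kb, y axis) at each receptor gene, ordered by H3K4me3. Points are libraries (3 per mark, H3K4me3 blue, H3K4me1 orange), the horizontal line is the mean and the error bar 1 SD. The H3K4me3 points of Il21r lie between 9786 and 10044 bp, above all other genes, and both marks are at 0 for Il7r.

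The marks took different positions around the start site. Of 39 promoter H3K4me3 peaks in the 3 libraries, 25 covered a coding TSS, whereas 0 of 49 promoter H3K4me1 peaks did so. A wide peak is more likely to cover a given base. Median widths over the whole lists were 270, 264 and 253 bp for the narrow H3K4me1 calls and 857, 821 and 821 bp for the broad H3K4me3 calls. Mark and width of the calls cannot be told apart here. Of the H3K4me1 peaks, pooled over the 3 libraries, 33 lay wholly downstream of the TSS and 16 wholly upstream. This split was not counted over all genes, so it cannot be read as particular to the receptor genes. A TSS covered by H3K4me3 in 3 of 3 libraries was found at 8 of 10 receptor genes, against 38.4% of all genes, and the exceptions were Il2ra (1 library) and Il7r (0 libraries). At Il2ra the nearest peaks of replicates 2 and 3 ended 0.04 and 0.03 kb short of the TSS. For H3K4me1, a TSS covered in every library was rare among all genes as well (0.0274%).

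**Figure D2:**
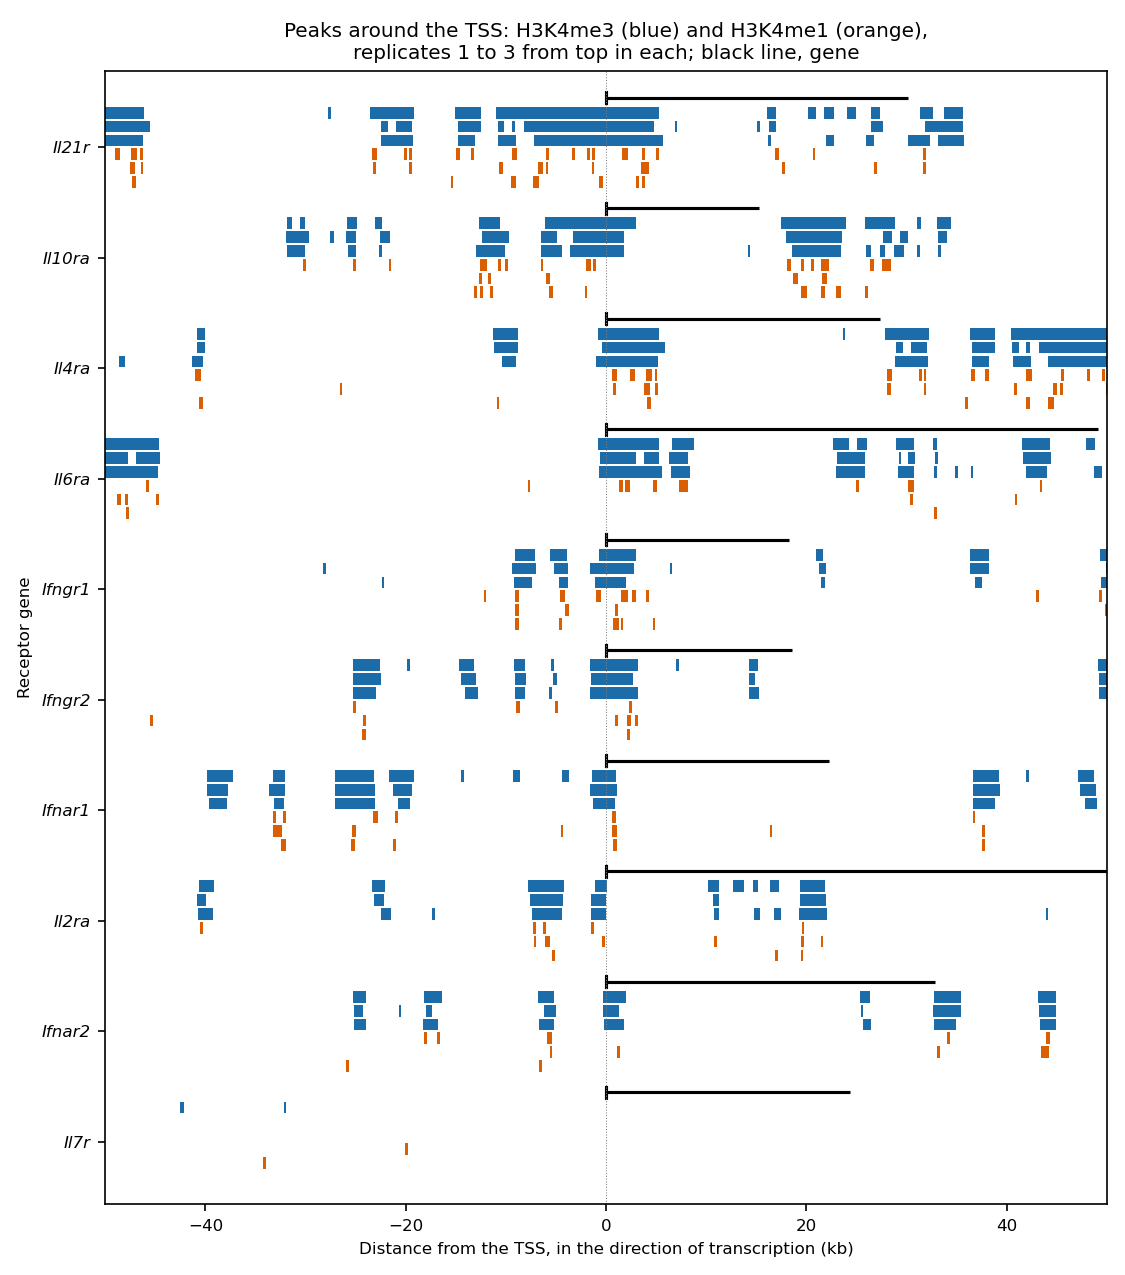
Peaks of the 6 libraries around the TSS of each receptor gene. The x axis is the distance from the TSS in kb in the direction of transcription, blue bars are H3K4me3 and orange bars H3K4me1 (replicates 1 to 3 from top to bottom in each), and the black line is the gene. H3K4me3 spans the TSS in 3 libraries at 8 genes, H3K4me1 flanks it, and Il7r is nearly empty.

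Il21r and Il4ra encode the ligand-specific chain of the interleukin 21 receptor and the alpha chain shared by the interleukin 4 and interleukin 13 receptors. They are neighbours on the plus strand of chromosome 7: Il4ra at chr7:125552120-125579474 and Il21r at chr7:125603429-125633570, with start sites 51.4 kb apart. Their windows therefore share peaks. For H3K4me1 these numbered 13, 8 and 4 in replicates 1 to 3 and for H3K4me3 5, 7 and 5, and the outlying counts of the pair are not independent.

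The H3K4me3 domain at the Il21r promoter was 1 unbroken peak in each library. It reached from 10.97 kb upstream to 5.24 kb downstream of the TSS in replicate 1 (fold enrichment 7.55), from 8.16 kb upstream to 4.79 kb downstream in replicate 2 (7.27) and from 7.23 kb upstream to 5.69 kb downstream in replicate 3 (7.2). The downstream end thus moved by less than 1 kb between libraries and the upstream end of the unbroken peak by more. Separate peaks, counted as outlying, lay just beyond it at 10.81 to 10.18 and 9.44 to 9.07 kb upstream in replicate 2. Replicate 3 had such a peak at 10.76 to 9.01 kb. The mark was thus called out to a similar distance in all 3 libraries, with a break in replicates 2 and 3. All genes were ranked by their widest promoter H3K4me3 peak, with genes without such a peak lowest. In that order the widths at Il21r stood at the 99.97th, 99.97th and 99.95th percentile of their libraries. Its promoter also held 6, 2 and 3 H3K4me1 peaks, which covered 1628, 1105 and 769 bp. Only 1 region of these was shared by all 3 libraries, an intronic one at chr7:125606963-125607781, 3.47 to 4.29 kb downstream of the TSS, with summits of 10, 7 and 5 fragments. Further out, Il21r had 11, 8 and 4 outlying H3K4me1 peaks and 6, 7 and 6 outlying H3K4me3 peaks. The H3K4me3 regions at 23.59 to 19.16 kb and 15.05 to 12.53 kb upstream, both between Il4ra and Il21r, and the region from 30.11 to 35.69 kb downstream, past the 3′ end of Il21r, were each found in 3 of 3 libraries.

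Il4ra had a more compact promoter domain that lay almost wholly downstream of its start. Its H3K4me3 peak began 0.8, 0.37 and 0.96 kb upstream of the TSS and ended 5.24, 5.85 and 5.19 kb downstream, with widths of 6044, 6219 and 6150 bp. Promoter H3K4me1 numbered 4, 3 and 1 peaks, covering 1664, 1047 and 449 bp, and the libraries shared 1 intronic region at chr7:125555929-125556664, 3.81 to 4.54 kb downstream, with summits of 6, 6 and 7 fragments. In both genes the H3K4me1 region found in every library thus sat in an intron near the downstream end of the H3K4me3 domain. Their gene bodies beyond 5 kb differed: Il21r held 5, 4 and 3 H3K4me3 peaks and 2, 2 and 0 H3K4me1 peaks, and Il4ra held 1, 0 and 0 and no H3K4me1 peak.

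The sequences below are the 151 bases around the tallest H3K4me1 summit of these shared intronic regions, shown because they are the sites at which the mark recurred at both neighbours. Both are on the plus strand of GRCm38.p6, at chr7:125607238-125607388 for Il21r and chr7:125556405-125556555 for Il4ra, and capitals mark runs of TG or CA repeated 3 or more times.
Il21r intron: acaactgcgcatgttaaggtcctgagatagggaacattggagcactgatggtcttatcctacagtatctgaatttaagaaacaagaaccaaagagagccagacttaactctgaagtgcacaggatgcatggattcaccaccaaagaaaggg
Il4ra intron: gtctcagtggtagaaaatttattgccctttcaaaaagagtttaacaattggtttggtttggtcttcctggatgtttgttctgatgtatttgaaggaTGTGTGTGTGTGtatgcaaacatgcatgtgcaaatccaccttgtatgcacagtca

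In the Il4ra window such a run covered 12 bases and 36.4% of the bases were soft-masked as repeats, against 0 bases and 0% in the Il21r window and a median of 12.6% masked over all 49981 H3K4me1 summit windows of that length.

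**Figure D3:**
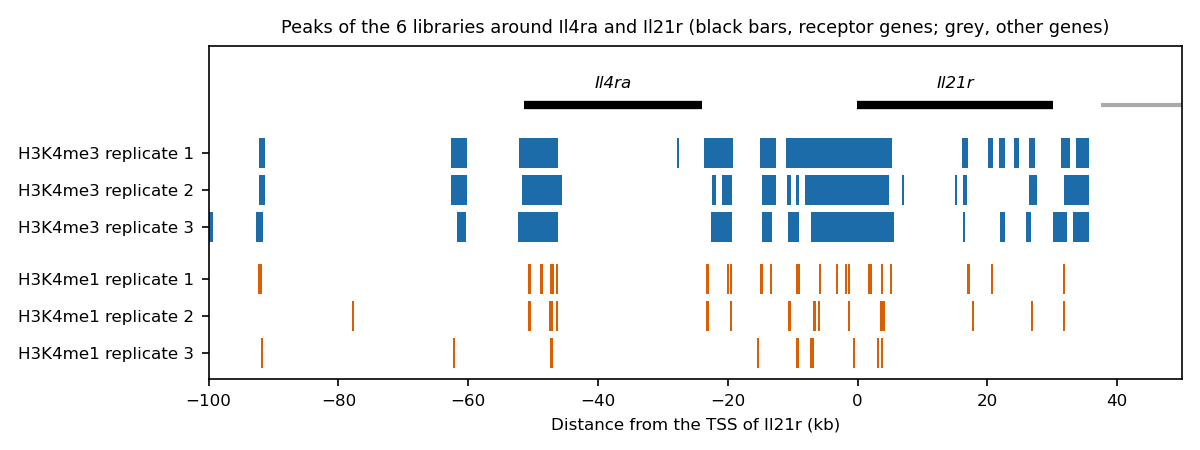
Peaks of the 6 libraries from 100 kb upstream to 50 kb downstream of the Il21r TSS (x axis, kb), with receptor genes in black and other genes in grey. The stretch held 14, 14 and 13 H3K4me3 peaks (blue) and 21, 14 and 9 H3K4me1 peaks (orange) in replicates 1 to 3, and the widest H3K4me3 peak of each library lies over the Il21r TSS.

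By the length under peaks of each mark in the promoter window, gene body and outlying window of all 6 libraries (18 values on a log10 scale), the genes most like Il21r outside its neighbourhood were Gm8369 (distance 1.01), Srgn (1.24) and Parp8 (1.35), against a median distance of 10.83 over all genes. For Il4ra they were Gm8369 (1.44), Slc16a6 (1.52) and Pithd1 (1.65), against a median of 9.78. Gm8369 headed both lists, with 9696, 8060 and 9271 bp of promoter H3K4me3. Since the windows of the pair share peaks, the lists are not independent. The genes were picked for the smallest distance, so lying below the median is set by that choice.

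Ifngr1 and Ifngr2 encode the ligand-binding and the signal-transducing chain of the interferon gamma receptor, and Ifnar1 and Ifnar2 the chains of the type I interferon receptor. Ifnar2, Ifnar1 and Ifngr2 lie in that order on the plus strand of chromosome 16, together with Il10rb, which encodes the second chain of the interleukin 10 receptor, and Ifngr1 is on chromosome 10 (chr10:19591949-19610229). Start sites of Ifnar1 and Ifngr2 were 61.8 kb apart, and the pair shared 1, 2 and 1 H3K4me1 and 3, 2 and 2 H3K4me3 peaks. Ifnar1 and Ifnar2, at 112.5 kb, shared 0 peaks of either mark.

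The interferon gamma chains had longer promoter domains than the type I chains. Ifngr1 carried 4805, 5611 and 3908 bp of promoter H3K4me3 and Ifngr2 4811, 4247 and 4758 bp. Ifnar1 carried 3146, 2696 and 2252 bp and Ifnar2 2245, 1584 and 2043 bp. Every library value of the gamma chains was thus above each value of the type I chains, a description for which no test was made. At Ifngr1 the mark was split in 2 peaks in each library, the TSS domain and a separate region 5.6 to 3.77 kb upstream whose fold enrichment (5.7, 5.78 and 7.71) was above that of the TSS domain (5.13, 5.09 and 4.31).

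Promoter H3K4me1 did not separate the gamma chains from the type I chains. Ifngr1 had 5, 2 and 4 promoter H3K4me1 peaks covering 2333, 604 and 1231 bp, with a mean of 1389.3 bp, the 99.87th percentile of all genes. That mean was the highest of the 10 receptor genes through replicate 1 alone: without it, a value added after seeing the data, it was 917.5 bp, against 937 bp at Il21r. None of its promoter H3K4me1 regions was in all 3 libraries, but one 9.13 to 8.68 kb upstream, at chr10:19582815-19583271, was, with 10, 6 and 5 fragments. Ifngr2 had 410, 836 and 298 bp and Ifnar1 347, 760 and 383 bp, values that overlapped. Ifnar2 had promoter H3K4me1 in replicate 2 alone (269 bp).

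At Ifnar1 the intronic region found in every library began 0.57 kb downstream of the TSS (chr16:91485812-91486351) with 8, 5 and 9 fragments, the closest of such regions to a start site. A second region with peaks in every library, 33.23 to 31.98 kb upstream (chr16:91452003-91453263), had tallest summits of 11, 6 and 5 fragments. It was merged from peaks that overlapped in a chain, and no base of it was covered in every library. Replicate 1 had peaks at 33.23 to 32.97 and 32.24 to 32 kb, replicate 2 at 33.23 to 32.39 kb and replicate 3 at 32.41 to 31.98 kb. Ifnar1 also had 9, 6 and 6 outlying H3K4me3 peaks and 0 in its gene body beyond 5 kb. Of those, the regions 39.87 to 37.25, 33.66 to 32.03, 27.11 to 23.06 and 21.63 to 19.18 kb upstream recurred in every library, the last with fold enrichments of 9.97, 7.07 and 8.44. Ifnar2 had 4 outlying H3K4me3 peaks in each library and 5, 3 and 2 H3K4me1 peaks. Of its 2 gene body H3K4me3 peaks in each library, the one 32.64 to 35.43 kb downstream of its TSS covers the start site of Il10rb and belongs as much to that gene.

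At Ifngr2 the tallest H3K4me1 summit of replicate 3 lay in repeat sequence. The intronic H3K4me1 region at chr16:91549150-91549659, 2.08 to 2.59 kb downstream, had 7, 11 and 16 fragments and fold enrichments of 4.31, 9 and 11.62, and the height of 16 in replicate 3 was the tallest of that library in any receptor window. The 151 bases around that summit are shown because they are TG-rich repeat (plus strand, chr16:91549166-91549316, capitals as above).
Ifngr2 intron: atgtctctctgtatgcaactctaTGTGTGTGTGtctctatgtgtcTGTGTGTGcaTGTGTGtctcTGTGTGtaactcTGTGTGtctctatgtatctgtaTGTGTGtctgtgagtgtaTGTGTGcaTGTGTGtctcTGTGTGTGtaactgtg

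All of these bases (100%) were masked as repeats and 62 lay in TG or CA runs, and whether read placement in the repeat has a part in the height was not tested. The summits of replicates 1 and 2 lay outside the printed bases, in the same region, at chr16:91549405 and chr16:91549339. Whether they lay in the repeat too was not examined. Repeat content was also high in the region 12.67 to 11.91 kb upstream of Il10ra, whose window around its tallest summit was 66.2% masked. In all, 3 of the 9 H3K4me1 regions found in every library held such a run around the tallest summit, compared with 22.2% of all summit windows.

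**Figure D4:**
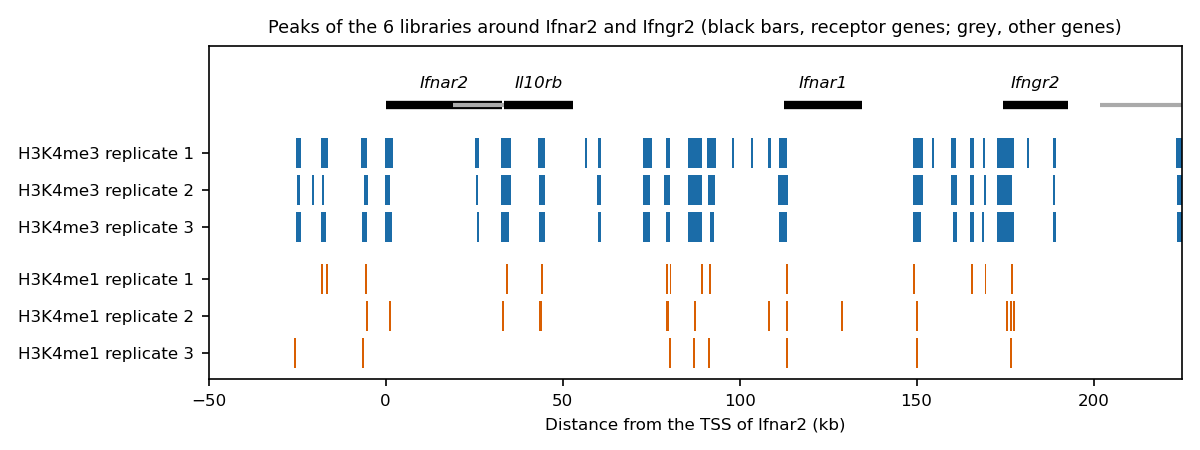
Peaks of the 6 libraries from 50 kb upstream of the Ifnar2 TSS to past the end of Ifngr2 (x axis, distance from the Ifnar2 TSS in kb), with receptor genes in black and other genes in grey. The stretch held 26, 21 and 20 H3K4me3 peaks (blue) and 14, 13 and 8 H3K4me1 peaks (orange) in replicates 1 to 3, and many of the H3K4me3 peaks between the genes recur in all 3 libraries.

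Il10ra and Il6ra encode the ligand-binding chains of the interleukin 10 and interleukin 6 receptors. Il10ra, on the minus strand at chr9:45253837-45269149, had 7955, 5175 and 6059 bp of promoter H3K4me3, with replicate 1 the highest. In that library the TSS domain was a single peak reaching 6.12 kb upstream, whereas replicates 2 and 3 had 2 peaks, with the TSS peak reaching 3.32 and 3.62 kb upstream. Promoter H3K4me1 was found in replicates 1 and 3 (807 and 198 bp). Il10ra had the highest mean number of outlying H3K4me1 peaks of the receptor genes, with 13, 5 and 8 peaks, the 99.76th percentile of all genes by their mean, although the libraries overlapped those of Il21r and Il4ra. It also had 9, 9 and 10 outlying H3K4me3 peaks. An H3K4me1 region found in every library lay 21.41 to 22.24 kb downstream of the TSS, in an intron of BC049352 (chr9:45246907-45247740), with 13, 9 and 11 fragments and fold enrichments of 9.82, 7.5 and 8.77, inside an H3K4me3 region from 17.48 to 23.99 kb that was present in every library.

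Most H3K4me3 peaks of Il6ra lay inside the gene and away from its promoter. It had 5855, 4881 and 5754 bp of promoter H3K4me3, and promoter H3K4me1 in replicate 1 alone (3 peaks, 1177 bp). Its gene body beyond 5 kb, within a gene of 49.14 kb (chr3:89864059-89913196, minus strand), held 7, 6 and 8 H3K4me3 peaks covering 10908, 8828 and 10087 bp, or 22.5% of that length, and 4, 2 and 1 H3K4me1 peaks. By H3K4me3 gene body length it ranked at the 98.32th percentile of all genes. In the body 5 H3K4me3 regions recurred in every library, the nearest 6.32 to 8.81 kb and the farthest 41.55 to 44.37 kb downstream of the TSS. Il21r followed with 12.6% of its gene body beyond 5 kb, Il2ra with 10.3% and Ifngr2 with 7%.

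Il2ra and Il7r encode the alpha chains of the interleukin 2 and interleukin 7 receptors, proteins best known from activated and regulatory T cells and from early lymphocytes. The Il2ra promoter (gene at chr2:11642807-11693193) was covered by H3K4me3 for 2000, 2070 and 2037 bp, the tightest set of values after Il7r, but the mark lay upstream of the start. The peak nearest to the TSS, from 1.46 kb upstream to 0.09 kb downstream when merged over libraries, covered the TSS in replicate 1 only. In replicates 2 and 3 it ended 0.04 and 0.03 kb upstream of the TSS, so the calls differed little there. A wider block lay 7.84 to 4.2 kb upstream in all 3. In introns of the gene, H3K4me3 regions 10.21 to 11.28 kb and 19.27 to 22 kb downstream were found in every library, with fold enrichments of 8.35, 5.88 and 6.68 at the first, higher than the 4.45, 5.24 and 5.58 next to the TSS. The second of them held the H3K4me1 region of Il2ra that recurred in 3 libraries (chr2:11662215-11662564), with 13, 8 and 8 fragments and fold enrichments of 9.82, 6.75 and 6.58.

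At Il7r (chr15:9505788-9530176, minus strand) no promoter or gene body peak of either mark was called in 6 libraries. What it had were isolated outlying peaks upstream, H3K4me1 in replicates 1 and 2 (1 each, with 5 and 4 fragments, at different places) and 2 H3K4me3 peaks in replicate 1. None of these recurred in another library of its mark. It was the only receptor gene without an outlying H3K4me3 peak in every library.

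Promoter sequences were available for 9 of the 10 genes in RefSeq (GRCm38.p6, 250 bases upstream of the annotated start), and they differed in CpG content. The promoter of Il7r had 1 CpG, Il2ra 3, Il21r 4, Ifngr1 and Ifnar2 11 each, Il4ra 17, Il6ra 18, Ifnar1 19 and Ifngr2 25, compared with a median of 6 over 32851 promoters. Genes with promoter H3K4me3 in 3 of 3 libraries had a median of 16 (n = 9620) and genes with it in none 2 (n = 5412). The following 4 are shown because they span that range and include the 3 lowest counts, with CpG in capitals: Il7r (chr15:9529877-9530126, minus strand), Il2ra (chr2:11642542-11642791, plus), Il21r (chr7:125603179-125603428, plus) and Ifngr2 (chr16:91546809-91547058, plus).
Il7r promoter: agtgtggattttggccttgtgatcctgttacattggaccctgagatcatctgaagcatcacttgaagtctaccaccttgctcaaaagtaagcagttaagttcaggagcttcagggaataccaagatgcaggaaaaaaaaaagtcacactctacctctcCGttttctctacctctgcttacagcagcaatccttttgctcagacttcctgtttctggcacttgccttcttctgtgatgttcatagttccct
Il2ra promoter: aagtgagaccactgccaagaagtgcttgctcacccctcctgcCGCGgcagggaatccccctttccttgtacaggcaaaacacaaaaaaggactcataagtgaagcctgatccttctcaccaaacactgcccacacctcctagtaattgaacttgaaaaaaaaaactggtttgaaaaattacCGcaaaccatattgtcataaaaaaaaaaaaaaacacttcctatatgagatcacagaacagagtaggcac
Il21r promoter: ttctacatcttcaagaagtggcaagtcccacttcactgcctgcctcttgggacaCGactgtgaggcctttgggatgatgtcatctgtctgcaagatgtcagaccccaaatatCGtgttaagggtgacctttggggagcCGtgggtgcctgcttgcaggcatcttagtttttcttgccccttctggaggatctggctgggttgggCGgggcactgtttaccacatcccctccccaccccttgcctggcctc
Ifngr2 promoter: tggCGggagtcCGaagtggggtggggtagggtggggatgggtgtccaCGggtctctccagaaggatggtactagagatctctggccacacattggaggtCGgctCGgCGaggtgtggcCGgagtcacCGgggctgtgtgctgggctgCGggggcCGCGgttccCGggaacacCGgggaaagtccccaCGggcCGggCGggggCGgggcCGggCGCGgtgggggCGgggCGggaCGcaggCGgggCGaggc

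The longest H3K4me3 domain of the group, at Il21r, thus sat on a start with fewer CpG than most marked genes, although its count was at the 41.1th percentile of all promoters. Of all genes with at most 4 CpG in this window, 20.2% (n = 5384) had promoter H3K4me3 in 3 of 3 libraries, and of those with at most 1, the count at Il7r, 10.3% (n = 2542) did. CpG count and domain length were therefore not in one order among the receptor genes: Ifngr2 had the most CpG and ranked below 5 genes by length. Searched on both strands, TTCNNNGAA, the core of STAT sites, matched the promoters of Ifnar2 and Il7r, against 7% of all promoters. GAGGAA, an ETS-like core, matched Ifnar1 and Il6ra, against 23.3%. In the summit windows of the 9 H3K4me1 regions found in every library these letters matched 0 and 1 (4.3% and 17.4% of all summit windows). The absence of a match says only that these letters are not in these windows.

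To compare the marks over the whole set, 4 values per library were tested by two-sided exact permutation over the 20 ways to assign the libraries. The lowest p this design allows is 0.1, so none can pass 0.05. The number of receptor genes with a promoter peak was 8, 7 and 6 for H3K4me1 and 9, 9 and 9 for H3K4me3 (7 ± 1 against 9 ± 0, exact p = 0.1, 0.133 after Benjamini-Hochberg adjustment over the 4). The groups did not overlap. The promoter length per gene was 863, 491.6 and 332.8 bp for H3K4me1 and 4666.1, 4141.8 and 4281.3 bp for H3K4me3 (562.47 ± 272.11 against 4363.07 ± 271.55 bp, exact p = 0.1, adjusted 0.133). Gene by gene it was higher in every H3K4me3 library than in every H3K4me1 library at 9 of 10 receptor genes, against 55.8% of all genes. Gene body peaks numbered 7, 8 and 3 for H3K4me1 and 22, 16 and 20 for H3K4me3 (6 ± 2.65 against 19.33 ± 3.06, exact p = 0.1, adjusted 0.133), again without overlap. Outlying peaks numbered 49, 30 and 23 for H3K4me1 and 43, 40 and 42 for H3K4me3 (34 ± 13.45 against 41.67 ± 1.53, exact p = 0.4, adjusted 0.4), and here the groups overlapped because H3K4me1 replicate 1 had the most of all. More outlying peaks in every H3K4me3 library than in every H3K4me1 library were found at 2 receptor genes, Ifngr2 and Ifnar1, against 37.4% of all genes. H3K4me1 lists are narrow calls and H3K4me3 lists broad calls with a lower threshold, so the mark and the calling mode cannot be told apart. When each list was limited to its 10000 peaks of highest −log10 q, the differences in gene body and outlying peaks turned direction (3.67 against 3 and 19 against 10 peaks on average), and only 2 genes kept promoter H3K4me1, and 5 promoter H3K4me3, in every library.

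**Figure D5:**
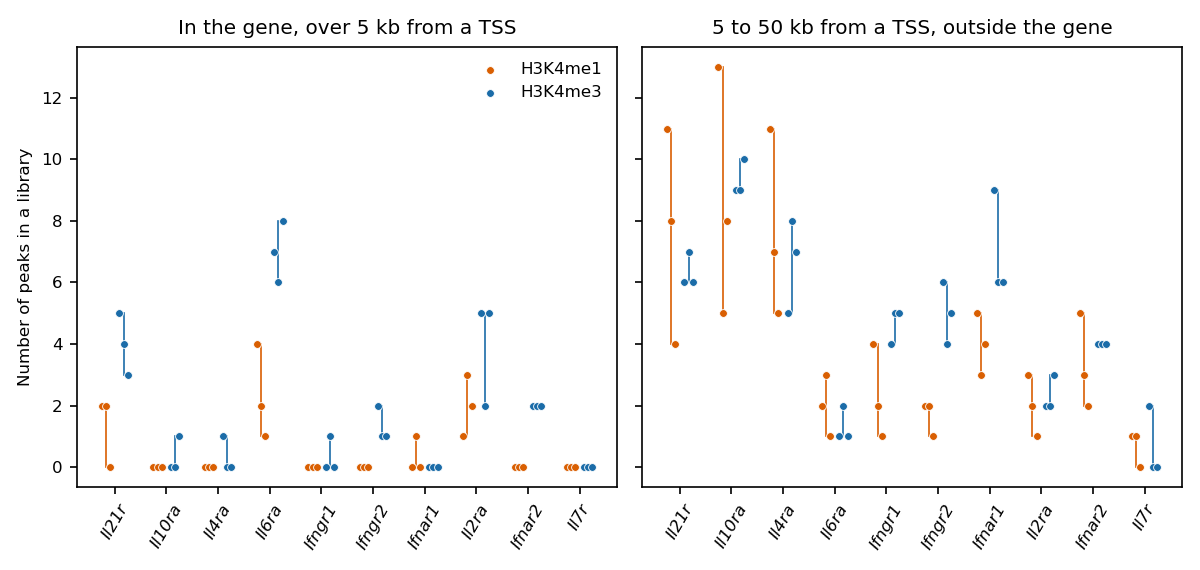
Number of peaks per library (y axis) in the gene body over 5 kb from a TSS (left) and 5 to 50 kb away outside the gene (right) at each receptor gene, with libraries as points and their range as a line (3 per mark, H3K4me3 blue, H3K4me1 orange). Il6ra stands out on the left with 6 to 8 H3K4me3 peaks, and the spread of H3K4me1 at Il10ra, from 5 to 13, is the widest on the right.

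Merged over libraries, the receptor windows held 113 H3K4me1 regions, of which 9 were in all 3 libraries, 26 in 2 and 78 in 1. Of the 9, the one far upstream of Ifnar1 was a chain of overlapping peaks without a base common to all 3 libraries. For H3K4me3, 55 of 84 regions were in all 3 libraries. The marks differed in this way over the whole lists too: 31%, 43.1% and 46.6% of all H3K4me1 peaks and 72.1%, 78.9% and 78.6% of all H3K4me3 peaks overlapped a peak of the same mark in another library, against 39.2%, 58.3% and 63.9% and 85.1%, 91.3% and 90.3% in the receptor windows. All 9 H3K4me1 regions found in every library overlapped H3K4me3 in every library, as did 25 of the 26 found in 2 libraries and 45 of the 78 found in 1. Such shares by recurrence were not counted over the whole lists, so they cannot be read as a trait of the receptor windows. Conversely, 17 of the 55 H3K4me3 regions found in every library overlapped H3K4me1 in every library. By peaks, 23%, 21.7% and 25% of H3K4me3 peaks in the receptor windows did so, against 6.4%, 6.7% and 6.6% of all H3K4me3 peaks. Taken per library, 74.3%, 83.3% and 75% of the H3K4me1 peaks in the receptor windows lay on H3K4me3 present in all 3 lists, compared with 60.8%, 62.3% and 66.4% of all H3K4me1 peaks. The H3K4me3 peaks near receptor genes were also wider: the median width was 1338, 1517 and 1310.5 bp, compared with 857, 821 and 821 bp over all peaks. These shares and widths were not tested. The whole lists are not limited to windows around coding genes, and peaks in the same windows of other genes were not counted apart. For 98 of 113 H3K4me1 regions and 64 of 84 H3K4me3 regions the nearest coding TSS was that of a receptor gene of the list, and the others lay closer to a different gene.

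A further 20 cytokine receptor chains were counted beside these values. Promoter H3K4me3 was present in 3 of 3 libraries at 17 of 20 and in none at 3 (Il18r1, Il12rb2 and Il23r, receptor chains best known from T and NK cells), and promoter H3K4me1 in 3 of 3 libraries at 3 (Il12rb1, Il17ra and Tgfbr2). Their median promoter H3K4me3 length was 2381.8 bp and their median promoter H3K4me1 length 134.7 bp. Tgfbr2, a chain of the TGF-beta receptor, had 6809, 4482 and 7574 bp of promoter H3K4me3, Il12rb1 5792, 4711 and 4511 bp and Il17ra 4563, 4405 and 4697 bp. The means of the 10 genes ran from 0 to 9958 bp, so lying within their range says little. Chains that pair with receptors of the list were shorter than some of their partners. Il2rg, the common gamma chain used by the receptors for interleukins 2, 4, 7 and 21, had 2183, 2377 and 1778 bp, Il10rb 2737, 2793 and 2151 bp, and Il6st, the signal chain of the interleukin 6 receptor, 3306, 2902 and 2876 bp. Il2rb, a further interleukin 2 receptor chain, had 1642, 1247 and 2017 bp, and Il13ra1, which pairs with Il4ra, 233, 266 and 776 bp. Il2rg, Il10rb, Il6st and Il13ra1 were below their partners Il21r, Il4ra, Il10ra or Il6ra in every library. Il2rg and Il2rb overlapped Il2ra, and Il2rg was above Il7r, a description without a test.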

How the data were processed

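Each library was deposited as its own peak list, called by the authors per library and not on pooled reads. The submitters' processing notes name BWA, Picard, HOMER and Genrich and the build mm10. Roles and versions are not given in the sources used here, and the deposited lists have the layout and peak names of MACS2. H3K4me1 lists are narrow calls with a summit and H3K4me3 lists are broad calls. Each deposited peak carries a fold enrichment (a linear ratio over local background), a −log10 p-value and a −log10 q-value. The score column of the deposited files was not used.

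Peaks were read as GRCm38 coordinates (0 of 22 chromosomes had a peak past its end) and assigned to the 41451 coding TSSs of 21864 protein-coding genes of GENCODE M21 (basic), with a minimum overlap of 1 bp. Means are given with the SD over 3 libraries. Summit fragments were recovered from the deposited fold and −log10 p of narrow peaks (100% whole within 0.0005). The members, the gene lists and the tests were chosen with earlier results of these data known. Of 20 other receptor chains, those with both marks in 3 of 3 libraries, those with no promoter H3K4me3 and the partner chains were named, the last chosen after their values were seen. The 3 genes most alike were those of smallest Euclidean distance, leaving out genes within 100 kb of a member TSS. Alternatives were a −log10 q of at least 5, the 10000 best peaks, peaks under 1 kb apart merged, TSSs of all transcripts, another overlap rule, a promoter window of 1 kb or the TSS itself, an outer limit of 25 kb, nearest genes only, a replicate block and each library left out. Further GC B cell markers are not reported here. Scripts were tested on simulated data. Python 3.11.15, pandas 2.3.3, numpy 2.4.6 and scipy 1.17.1 were used.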

Additional observations from a re-analysis of the deposited data

How the results depend on the processing

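Of 54 alternative settings over the 4 contrasts between marks, 51 kept the direction, but not always the size. Differences below are H3K4me1 minus H3K4me3. Limiting each list to its 10000 best peaks turned the difference in gene body peaks from -13.33 to 0.67 and that in outlying peaks from -7.67 to 9, and counting only peaks whose nearest coding TSS was that of a receptor gene turned the latter to 0.33. The cause was not tested. The difference in genes with a promoter peak went from -2 to -0.33 with the 10000 best peaks (exact p = 1), -5.33 at a −log10 q of at least 5 and -5 in a 1 kb window, that in gene body peaks to -3 at that q and -5.67 with a 1 kb window, that in promoter length to -2449.1 bp with the 10000 best peaks and -1464.07 bp in a 1 kb window, and that in outlying peaks to -12 at that q and -1.33 within 25 kb. No setting could pass 0.05, since the smallest possible exact p was 0.1, so these p-values say nothing of stability. Leaving out each library in turn gave -2.5 to -1.5 for genes with a promoter peak, -3950.87 to -3649.08 bp for promoter length, -15 to -11.83 for gene body peaks and -15.17 to -2.17 for outlying peaks, with the extremes of the last reached without H3K4me1 replicate 1 and without H3K4me1 replicate 3. With replicate numbers as a block, the paired differences were -2, -3800.6, -13.33 and -7.67 (exact sign-flip p = 0.25, 0.25, 0.25 and 0.5, the smallest possible being 0.25). The main values use no pairing because the labels do not say that equal replicate numbers mark the same cells. Deviations of same-numbered libraries had r = -0.023, -0.004 and 0.005 over 14451 genes, and those of differently numbered libraries -0.024 to 0.027. These values cannot decide on pairing, since differently called marks need not deviate together even in shared cells. The counts that follow were added after seeing the data. The count of 5 genes with promoter H3K4me1 in every library fell to 0 at a −log10 q of at least 5, to 2 with the 10000 best peaks, to 2 in a 1 kb window and to 0 where the TSS had to be covered. The count of 9 for H3K4me3 fell to 5 with the 10000 best peaks and to 8 at a −log10 q of at least 5. H3K4me1 summits in the receptor windows held 4 to 16 fragments, which limits their precision.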

Other observations

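Outlying H3K4me3 in the windows of the receptor genes covered, on average over libraries, 18239 ± 1736.4 bp at Il21r, 17012 ± 2457.8 bp at Il4ra, 16351.3 ± 1562.7 bp at Il10ra and 13702.3 ± 1978.9 bp at Ifnar1 (SD, n = 3), or 28.1%, 25.1%, 20.5% and 18.8% of the window. The values of Il21r and Il4ra each include the promoter domain of the other gene. Among the remaining genes the mean was 8093.3 bp at Ifnar2, 6210.7 bp at Ifngr2, 5231 bp at Il6ra, 5005 bp at Il2ra, 5001.7 bp at Ifngr1 and 186.7 bp at Il7r, compared with a median of 1578 bp over all genes. At Il6ra this length was mostly a region from 51.34 to 44.53 kb upstream that covers the start site of Atp8b2.

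Some of the tallest H3K4me1 peaks of the receptor genes were not shared by all libraries. The block 7.84 to 4.2 kb upstream of Il2ra had H3K4me3 fold enrichments of 6.41, 4.96 and 5.52 and held 2, 2 and 1 H3K4me1 peaks, one of which, in replicate 2, reached 16 fragments and a fold enrichment of 11.7. No H3K4me1 site of this block was shared by all 3 libraries. At Il2ra replicate 2 also had an H3K4me1 peak of 12 fragments from 0.38 to 0.08 kb upstream of the TSS, with no counterpart in the other libraries. At Ifngr1 a peak 4.61 kb upstream reached 15 fragments in replicate 1.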
